A study of Arabidopsis thaliana with 24 samples.

Results

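The signals of 3 Arabidopsis genes of carbohydrate metabolism are described here across 8 genotypes that make or lack flavonoids: AT1G34580 and AT4G04750, which encode sugar transporters, and AT5G65685, which encodes a protein related to starch synthases. They were chosen by name, as 3 of the 13350 genes with a probe set annotated to that gene alone, because an earlier look at these same arrays had shown the transporters higher and AT5G65685 lower in plants carrying pap1-D. The differences between plants with and without pap1-D are therefore given as a description with no test. Each gene had 1 probe set, and all 3 passed the filter on dim signals, which kept 14935 of 22746.

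PAP1 (MYB75) is a MYB transcription factor that, with bHLH and WD40 partners, switches on the late genes of anthocyanin synthesis. MYB12 is a related factor that acts mainly on the early genes leading to flavonols, and chalcone synthase (CHS), the enzyme lost in tt4, makes the first committed step of both branches. Anthocyanins are stored as glycosides, so their synthesis draws on sugar nucleotides, and sucrose is a known inducer of PAP1. Hexose transporters of the STP family bring monosaccharides into the cell together with protons. ERD6-like transporters form a large family of facilitators, several of them on the vacuolar membrane. Starch synthases build glucans in the plastid, and some relatives without a full catalytic domain act in starting the granules.

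Each genotype was measured on 3 Affymetrix ATH1 arrays of RNA from aerial parts of 3-week-old plants, which were kept at 22 °C on agar containing 1% sucrose, with days of 16 h light and nights of 8 h. The genotypes were wild-type Col-0, the MYB12 overexpressor MYB12OX, the PAP1 overexpressor pap1-D, the CHS mutant tt4, the lines WOX1-1 and WOX1-2 that came from crossing MYB12OX with pap1-D, and the crosses MYB12OX/tt4 and pap1-D/tt4. MYB12OX, pap1-D and tt4 are in the Col-0 background, and the labels call the overexpressors and the crosses homozygous. The labels name no promoter for either overexpressor, and they name separate lines for the WOX1 cross alone. Separate plants or cultures behind replicate arrays are not stated, so p-values measure the spread between arrays, which may in part be technical. A drought experiment described in the growth protocol is tied to no array.

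The genotype labels could be checked in part. Of 11 listed anthocyanin genes, 5 had a probe set of their own, and all 5 were higher with pap1-D. DFR, which encodes dihydroflavonol reductase, averaged 38.0 in Col-0 and 27.1 in tt4 against 2159 to 2728 in the 4 genotypes with pap1-D. Probe sets named for MYB12, PAP1 and CHS were not analysed here. RCA, the Rubisco activase of green tissue, had signals of 18030 to 27160, and the root marker PYK10 of 1140 to 2635. The other 3 root markers and the 3 pollen markers with a probe set stayed below the filter. Of the 2 floral and anther markers with one, AMS stayed below it and AT5G07230 passed, with signals of 4.2 to 182.8. Probe sets covered 1 of 12 listed green, 4 of 9 root and 2 of 8 floral and anther markers. They covered 3 of 5 pollen and 0 of 5 seed markers, so this check is partial. None of the tested tissue markers was called in the average PAP1 effect. In whole aerial parts, fewer cells of a type and less RNA per cell cannot be told apart. The first principal component held 34.5% of the variance, and its genotype means rose with the order in which the genotypes are listed, from -25.4 in Col-0 to 21.1 in tt4. Within every genotype the scores also rose from replicate 1 to 3, as from -28.84 to -22.06 in Col-0 and from 19.47 to 22.69 in tt4. No date of harvest or hybridization is known here, so genotype and position in that order cannot be told apart between genotypes. Within a genotype, replicate number and position cannot be told apart.

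AT1G34580, known as STP5, belongs to the STP family of proton-coupled hexose carriers. Its signals were low on the scale of these arrays, whose overall median was 170.4. Among genotypes without pap1-D, they were 160.1, 109.1 and 130.8 in Col-0 and 141.2, 89.4 and 91.1 in MYB12OX. They were 103.1, 86.0 and 91.7 in MYB12OX/tt4 and 75.2, 78.2 and 78.6 in tt4. The table holds no detection calls, so signals at this level cannot be told from background. Among genotypes with pap1-D, they were 160.0, 186.2 and 178.5 in pap1-D and 216.5, 220.8 and 200.3 in WOX1-1. They were 154.1, 181.9 and 196.7 in WOX1-2 and 157.3, 148.4 and 153.9 in pap1-D/tt4. The 12 arrays with pap1-D spanned 148.4 to 220.8 with a median of 180.2, and the other 12 spanned 75.2 to 160.1 with a median of 91.4. The groups overlapped through Col-0 replicate 1, and 7 of the 12 arrays with pap1-D lay above every array without it.

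**Figure D1:**
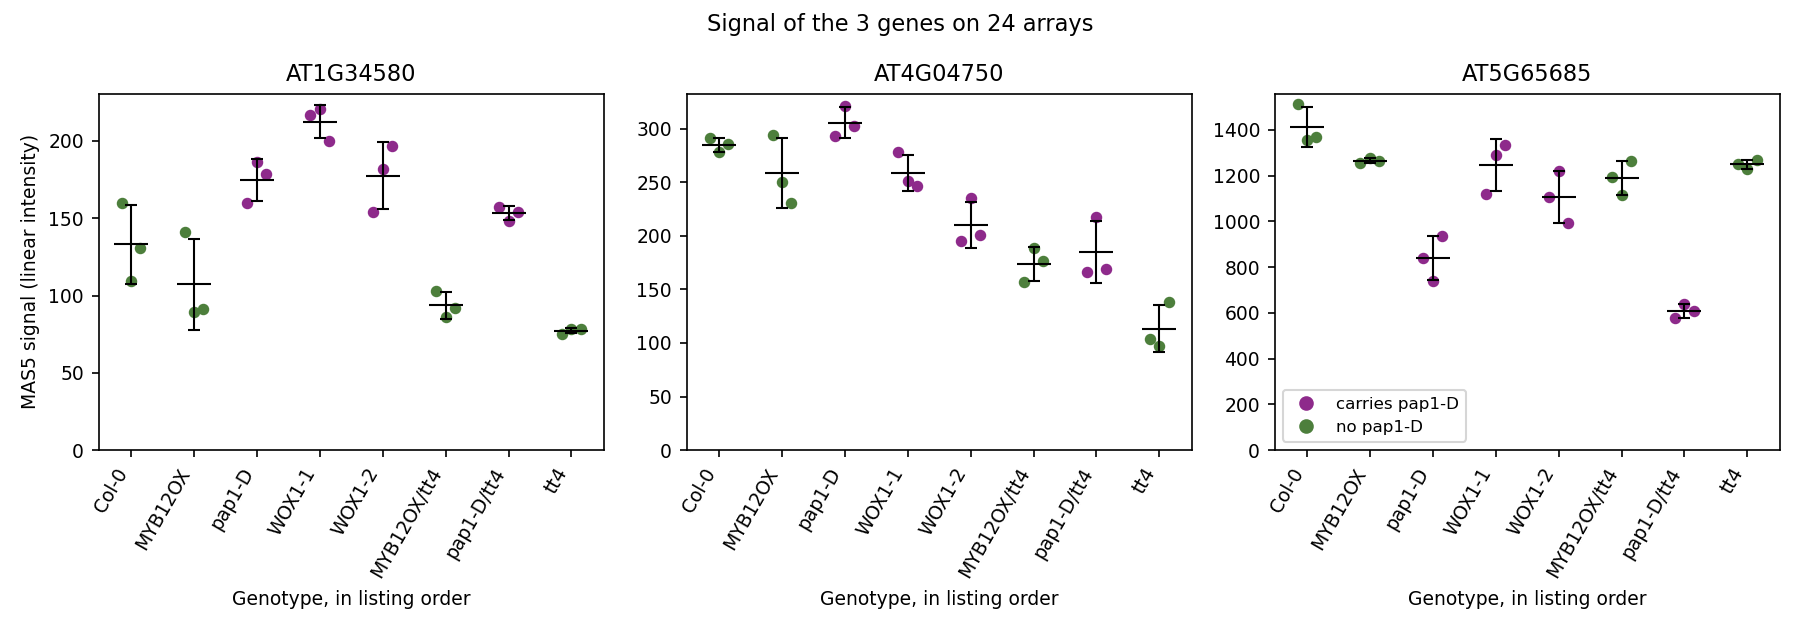
MAS5 signal on a linear axis from 0 of AT1G34580, AT4G04750 and AT5G65685 on each of the 24 arrays, by genotype in listing order. Points are arrays, purple for genotypes with pap1-D and green for the others, and bars are the mean ± SD of 3 arrays. AT1G34580 was highest in WOX1-1, at 212.5 ± 10.8, AT4G04750 lowest in tt4, at 113.4 ± 22.0, and AT5G65685 lowest in pap1-D/tt4, at 608 ± 32.0.

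By mean signal, the order for AT1G34580 was WOX1-1 at 212.5 ± 10.8 (SD, n = 3, as for all genotype means here), WOX1-2 at 177.5 ± 21.7, pap1-D at 174.9 ± 13.5, pap1-D/tt4 at 153.2 ± 4.47, Col-0 at 133.3 ± 25.6, MYB12OX at 107.2 ± 29.4, MYB12OX/tt4 at 93.6 ± 8.70 and tt4 at 77.3 ± 1.87. The 4 genotypes with pap1-D thus held the first 4 places. Of the neighbours in this order, WOX1-2 and pap1-D overlapped array by array, and so did pap1-D/tt4 and Col-0, Col-0 and MYB12OX, and MYB12OX and MYB12OX/tt4. On the scale of log2(signal + 42.6), used for all differences here, AT1G34580 was higher by 0.31 ± 0.12 (SE) in pap1-D than in Col-0, by 0.78 in WOX1-1 and 0.57 in WOX1-2 than in MYB12OX, and by 0.71 in pap1-D/tt4 than in tt4. The offset of 42.6 shrinks differences of a probe set this dim. The difference averaged over the backgrounds was 0.57 ± 0.07 and became 0.32 when the offset was raised to 170.4. MYB12OX replicate 1 lay above the other MYB12OX arrays, and without it the WOX1-1 difference was 0.94 and the WOX1-2 difference 0.72.

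AT4G04750 encodes a member of the ERD6-like family, and AT4G04760 belongs to the same family. Its signals were 291.6, 278.3 and 285.4 in Col-0 and 294.3, 250.7 and 231.1 in MYB12OX. They were 293.0, 321.4 and 302.4 in pap1-D and 278.1, 251.4 and 246.8 in WOX1-1. The lowest of the CHS-intact genotypes was WOX1-2, at 195.2, 235.2 and 200.8, which overlapped MYB12OX. In the genotypes with tt4, the signals were 156.7, 188.6 and 176.4 in MYB12OX/tt4, 166.7, 218.0 and 169.0 in pap1-D/tt4, and 104.1, 97.6 and 138.6 in tt4. Of these 9 arrays, 8 lay below all 15 arrays of the genotypes with intact CHS, the exception being pap1-D/tt4 replicate 2.

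The levels of AT4G04750 did not follow pap1-D alone. The means ran from pap1-D at 305.6 ± 14.5 and Col-0 at 285.1 ± 6.67 through WOX1-1 at 258.8 ± 16.9 and MYB12OX at 258.7 ± 32.3 to WOX1-2 at 210.4 ± 21.7, and then from pap1-D/tt4 at 184.6 ± 29.0 and MYB12OX/tt4 at 173.9 ± 16.1 down to tt4 at 113.4 ± 22.0. All neighbours from WOX1-1 to MYB12OX/tt4 in this order overlapped, while tt4 stood apart. The gaps at the top were narrow: the lowest pap1-D array was at 293.0 and the highest Col-0 array at 291.6. The lowest Col-0 array was at 278.3 and the highest WOX1-1 array at 278.1. MYB12OX replicate 1, at 294.3, lay above every Col-0 array and above pap1-D replicate 1. The PAP1 difference was 0.09 ± 0.11 in pap1-D against Col-0, 0.00 in WOX1-1 and -0.25 in WOX1-2 against MYB12OX, and 0.54 in pap1-D/tt4 against tt4. The average of 0.17 ± 0.06 therefore rested on the tt4 background, and the description of this gene as higher with PAP1 does not hold for the genotypes with intact CHS.

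AT5G65685, known as STARCH SYNTHASE 5, encodes a starch synthase relative that in Arabidopsis acts in granule initiation. It was the brightest of the 3 probe sets, although signals of different probe sets give no order of transcript amounts. Its signals were 1511.8, 1355.8 and 1369.6 in Col-0 and 1256.6, 1277.6 and 1261.8 in MYB12OX. They were 1249.1, 1230.6 and 1268.7 in tt4 and 1192.5, 1116.0 and 1261.8 in MYB12OX/tt4. These 12 arrays without pap1-D stayed between 1116.0 and 1511.8. With pap1-D alone the signals were 839.2, 741.1 and 933.6, and in pap1-D/tt4 they were 575.8, 639.8 and 608.5. In the lines that also carry MYB12OX they were 1119.6, 1290.1 and 1335.0 in WOX1-1 and 1104.3, 1219.0 and 993.6 in WOX1-2. All 6 arrays of pap1-D and pap1-D/tt4 lay below the other 18, a pattern that held for 1 of the 14935 tested probe sets (0.0067%), AT5G65685 itself. That split was chosen after the values of AT5G65685 were seen. Its signals in pap1-D and pap1-D/tt4 are also among those that chose the gene as lower with pap1-D. Its place in the count was therefore set by these choices, and the share of 0.0067% is a description and no test of rarity.

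The genotype means of AT5G65685 were 1412 ± 86.3 in Col-0, 1265 ± 11.0 in MYB12OX, 1249 ± 19.1 in tt4, 1248 ± 114 in WOX1-1, 1190 ± 72.9 in MYB12OX/tt4, 1106 ± 113 in WOX1-2, 838 ± 96.2 in pap1-D and 608 ± 32.0 in pap1-D/tt4. From MYB12OX to WOX1-2 the neighbours in this order overlapped, while Col-0, pap1-D and pap1-D/tt4 each stood apart from theirs. The PAP1 difference was -0.73 ± 0.08 in pap1-D against Col-0 and -0.99 in pap1-D/tt4 against tt4. It was -0.02 in WOX1-1 and -0.19 in WOX1-2 against MYB12OX. The description of this gene as lower with PAP1 thus holds where MYB12OX is absent. With MYB12OX, the arrays of WOX1-1 overlapped those of MYB12OX, and those of WOX1-2 lay below them by a smaller difference.

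In all, 8 differences that the choice of the genes did not use were tested with limma across all 14935 probe sets, with Benjamini-Hochberg adjustment, an adjusted p under 0.05 counting as called. They share arrays with the PAP1 differences that chose the genes, and with each other, so their results are not independent of them. Loss of CHS was tested first. In tt4 against Col-0, 2 of the 3 genes were lower, where 17.2% of all tested probe sets were lower and 36.5% were called in either direction. AT1G34580 fell by 0.54 ± 0.12 (adjusted p = 0.0013 by limma), with all 3 tt4 arrays below all 3 Col-0 arrays. AT4G04750 fell by 1.08 ± 0.11 (adjusted p = 9e-08 by limma), again with no overlap. The tt4 arrays are the reference of the pap1-D/tt4 difference on which the choice of AT4G04750 rested, which can favour this direction. They served in the choice of AT1G34580 too, beside the Col-0 arrays. AT5G65685 differed by -0.17 ± 0.08 and was not called (adjusted p = 0.119 by limma). RCA, the green tissue marker, was also lower in tt4, at -0.23 ± 0.08 (adjusted p = 0.0248 by limma), and its part in these results was not tested.

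**Figure D2:**
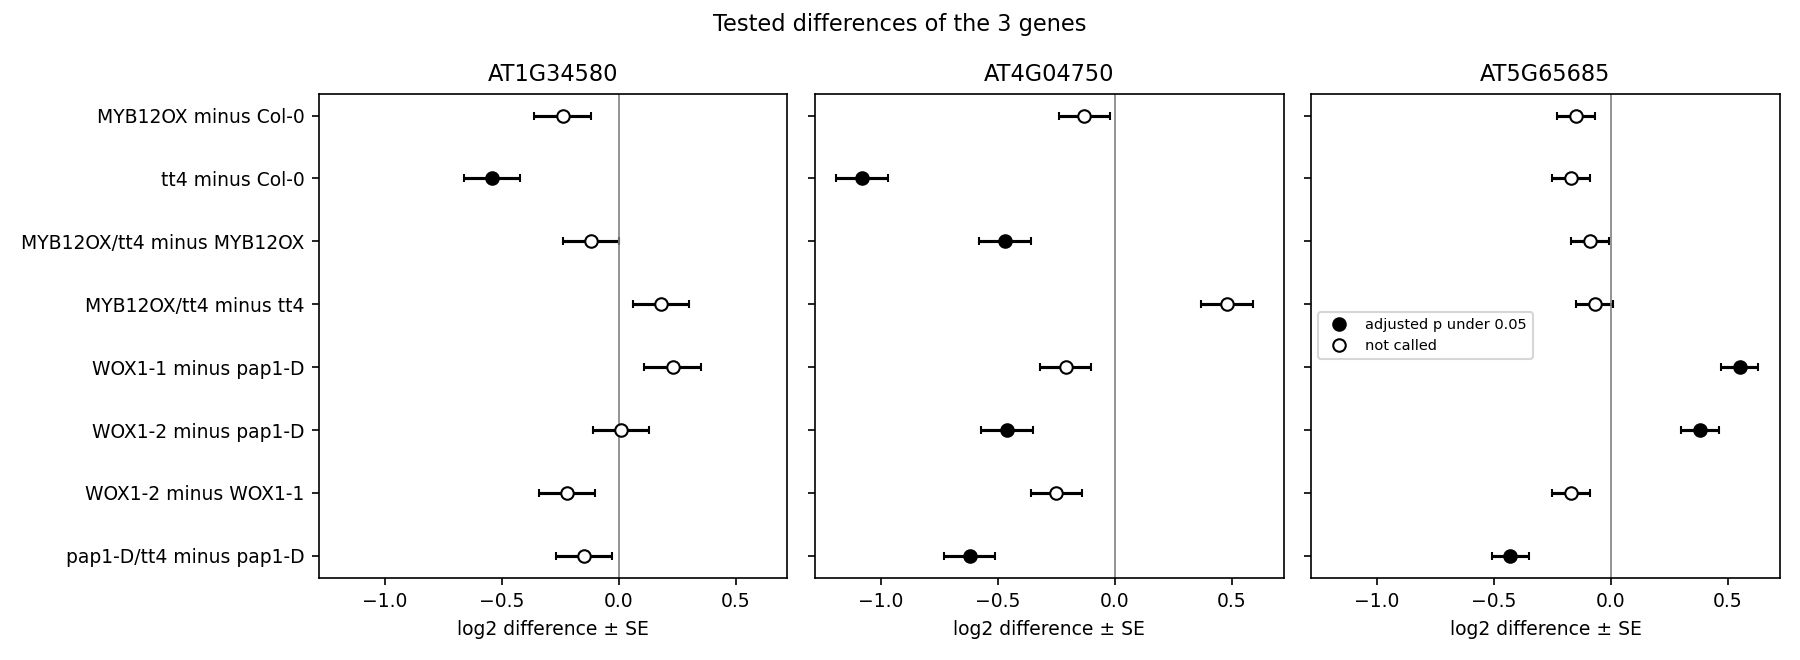
Differences of AT1G34580, AT4G04750 and AT5G65685 in the 8 tested comparisons, on the scale of log2(signal + 42.6), with bars of 1 SE. Filled points had an adjusted p under 0.05 by limma. AT4G04750 was lower in all 3 comparisons of a tt4 genotype with its CHS-intact parent, and AT5G65685 was higher in both WOX1 lines than in pap1-D.

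AT4G04750 also fell where tt4 was combined with an overexpressor. In MYB12OX/tt4 against MYB12OX it was 1 of the 3 genes called, at -0.47 ± 0.11 (adjusted p = 0.00382 by limma), where 8.23% of all tested probe sets were lower. In pap1-D/tt4 against pap1-D, 2 of the 3 genes were lower, where 8.84% of all tested probe sets were. AT4G04750 fell by 0.62 ± 0.11 (adjusted p = 0.00035 by limma). AT5G65685 fell by 0.43 ± 0.08 (adjusted p = 0.000911 by limma), from a mean of 838 to one of 608, with no overlap. AT1G34580 differed by -0.12 and -0.15 in these comparisons and was not called in either.

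These CHS results moved with the position of the arrays in the listing. With that position as a covariate, none of the calls above held by limma. AT1G34580 in tt4 against Col-0 then had a difference of 0.07 ± 0.80 (adjusted p = 0.982), with its sign turned. AT4G04750 kept its direction, at -1.15 ± 0.72 in tt4, -0.52 in MYB12OX/tt4 and -0.66 in pap1-D/tt4, and AT5G65685 had -0.65 in pap1-D/tt4. The standard errors in that fit were several times larger, because the position and the genotype nearly coincide.

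**Figure D3:**
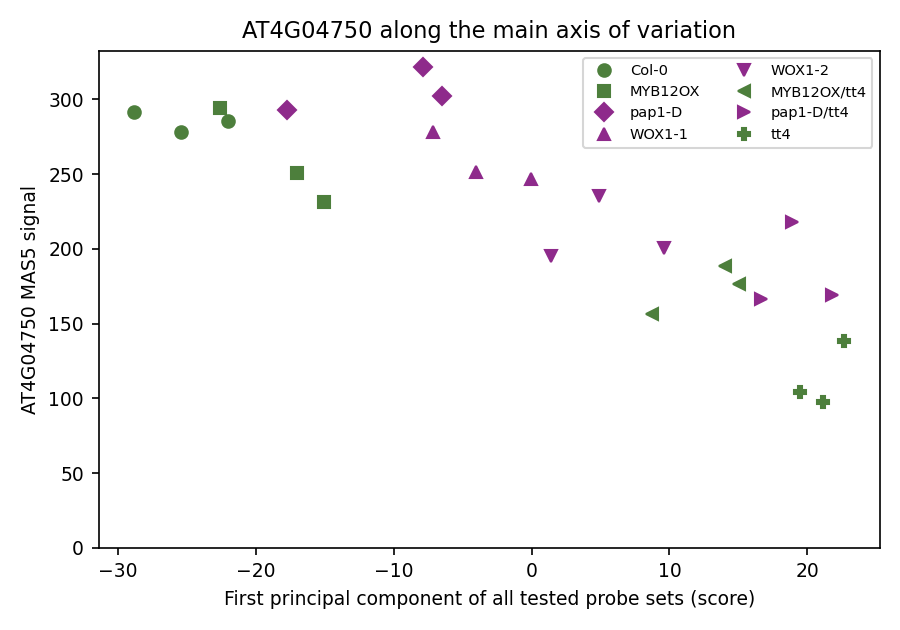
Signal of AT4G04750 against the first principal component of the 14935 tested probe sets (34.5% of the variance) on the 24 arrays, marked by genotype. The Pearson correlation, taken on log2(signal + 42.6), was -0.82; Col-0 lies at the left end and tt4, with the lowest signals, at the right end.

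The PAP1 differences that chose the genes can also be set side by side between backgrounds, again with no test. The PAP1 difference was larger in tt4 than in Col-0 by 0.39 ± 0.17 for AT1G34580 and by 0.46 ± 0.15 for AT4G04750. For AT5G65685 it was more negative in tt4, at -0.26 ± 0.12. With listing position as a covariate, the values were 0.13 for AT1G34580 and -0.10 for AT5G65685.

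The comparison of MYB12OX with Col-0 resolved no difference in the 3 genes. None of the 3 was called and none had an unadjusted p under 0.05, where 1% of all tested probe sets were called. AT1G34580 differed by -0.24 ± 0.12 (adjusted p = 0.429 by limma) and AT5G65685 by -0.15 ± 0.08 (adjusted p = 0.478 by limma). In MYB12OX/tt4 against tt4, none was called where 0.187% of all tested probe sets were. AT4G04750 came closest, at 0.48 ± 0.11 (adjusted p = 0.0691 by limma), with all 3 MYB12OX/tt4 arrays above all 3 tt4 arrays. It was called with the replicate number as a block (adjusted p = 0.0498) and with array weights (adjusted p = 0.0341). The tt4 arrays are again the reference, which can favour a higher signal of AT4G04750 in MYB12OX/tt4.

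On top of pap1-D, MYB12OX went with a higher signal of AT5G65685. The pap1-D arrays used as the reference are among those that chose this gene as lower with pap1-D, which can favour that direction. In WOX1-1 against pap1-D, AT5G65685 was the 1 of the 3 genes called, and 1 of 7 probe sets called in all (0.0469%). It was higher by 0.55 ± 0.08 (adjusted p = 0.00437 by limma), and every WOX1-1 array exceeded every pap1-D array. In WOX1-2 against pap1-D, 2 of the 3 genes were called, where 2.38% of all tested probe sets were. AT5G65685 was higher by 0.38 ± 0.08 (adjusted p = 0.0146 by limma), without overlap. AT4G04750 was lower by 0.46 ± 0.11 (adjusted p = 0.0231 by limma), also without overlap. AT1G34580 differed by 0.23 in WOX1-1 and was not called (adjusted p = 0.732 by limma).

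None of these calls held when the listing position was a covariate or when only the genotypes of the contrast were fitted. For AT5G65685 in WOX1-1, the adjusted p by limma was then 0.152 and 0.666. In WOX1-2, it was 0.533 and 0.135 for AT5G65685, and 0.392 and 0.0699 for AT4G04750. The calls were also lost without certain single arrays. The WOX1-1 call of AT5G65685 was lost without pap1-D replicate 2 (adjusted p = 0.0821) or WOX1-1 replicate 3 (adjusted p = 0.0776). Its WOX1-2 call was lost without pap1-D replicate 1 (0.0646), pap1-D replicate 2 (0.084) or WOX1-2 replicate 2 (0.0975), these being adjusted p-values. The WOX1-2 call of AT4G04750 was lost without any one of the pap1-D arrays, WOX1-2 replicate 1 or WOX1-2 replicate 3, with adjusted p between 0.0522 and 0.12. In all of these fits the differences kept their direction. Between the sister lines, WOX1-2 against WOX1-1, no probe set was called (0%) by limma, and 1 of the 3 genes, AT4G04750, had an unadjusted p under 0.05.

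Set side by side in the same way, with no test, the PAP1 difference of AT5G65685 was less negative with MYB12OX than without it by 0.62 ± 0.11, and by 0.54 to 0.70 with each array left out in turn. The WOX1 lines differed in how they compared with MYB12OX: WOX1-1 overlapped it, while all 3 WOX1-2 arrays lay below all 3 MYB12OX arrays. The corresponding value was 0.36 ± 0.16 for AT1G34580, or 0.52 without MYB12OX replicate 1, and -0.21 ± 0.14 for AT4G04750.

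The 3 genes varied in different ways. Over the 24 arrays, as a description, AT1G34580 had a Pearson correlation of 0.61 with AT4G04750 and of -0.30 with AT5G65685, and the correlation of AT4G04750 with AT5G65685 was 0.04. All arrays share the genotype structure and the listing order. The correlation with the first principal component was -0.26 for AT1G34580, -0.82 for AT4G04750 and -0.40 for AT5G65685.

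Among 8123 other tested probe sets annotated to 1 gene, the 5 with signals most like those of AT1G34580 belonged to anthocyanin genes. These were the same 5 genes that the anthocyanin list had measured. They were AT5MAT, which encodes a malonyltransferase (r = 0.87), UF3GT, an anthocyanin glycosyltransferase (r = 0.87), UGT78D2, a flavonoid 3-O-glucosyltransferase (r = 0.86), AT4G14090, an anthocyanidin 5-O-glucosyltransferase (r = 0.85), and DFR (r = 0.83). These correlations lay between genotypes: after each genotype's mean was removed, they ranged from -0.34 to 0.24. The likeness was one of pattern, and for DFR not one of size. The average PAP1 difference was 5.0 for DFR, against 0.75 for UGT78D2 and 0.57 for AT1G34580. Since AT1G34580 was chosen for being higher with pap1-D, a likeness to genes that are higher with pap1-D is in part set by that choice.

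**Figure D4:**
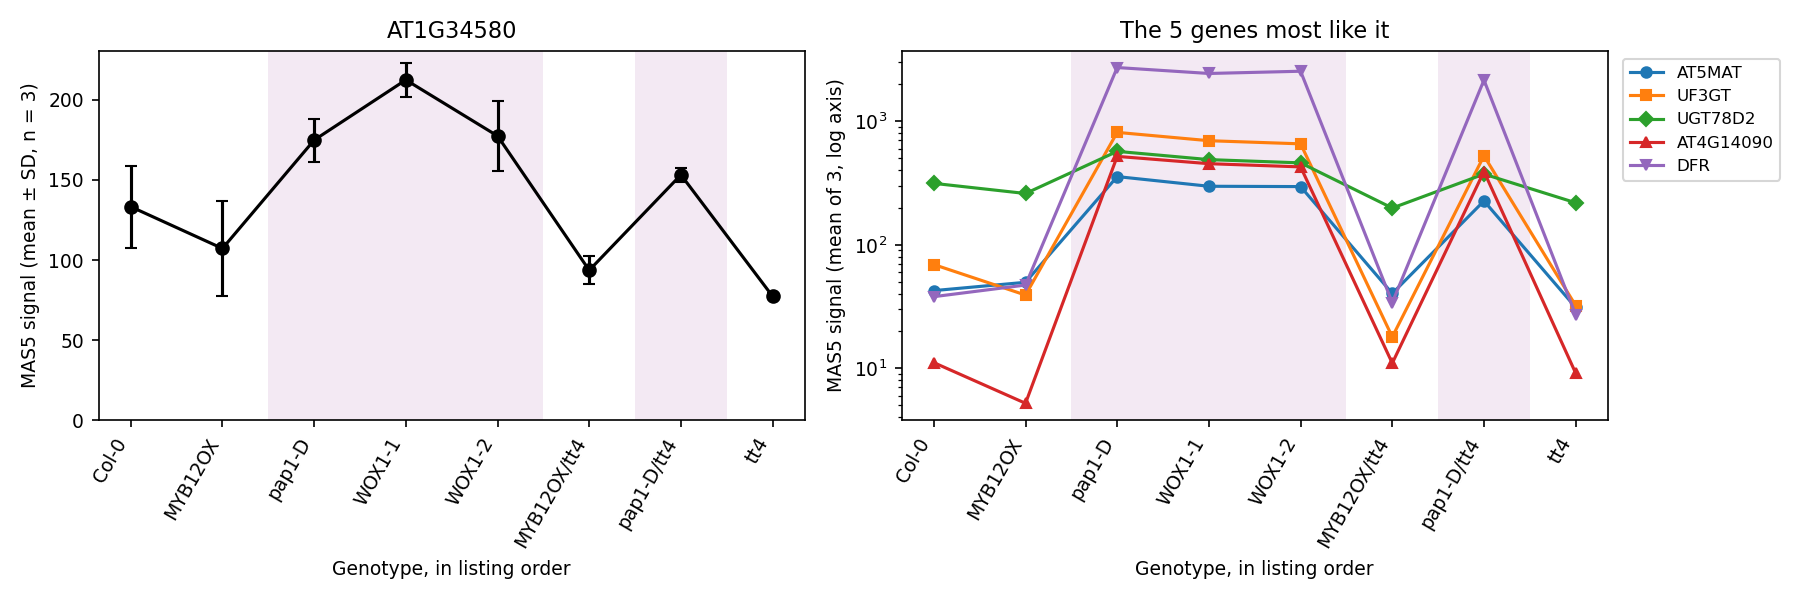
Mean MAS5 signal of AT1G34580 (left, linear axis, mean ± SD, n = 3) and of the 5 genes most like it over the 24 arrays (right, log axis), by genotype in listing order; lines join genotypes as a guide and genotypes with pap1-D are shaded. All 6 genes were higher in the shaded genotypes, DFR by far more than AT1G34580.

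The genes most like AT4G04750 were AT2G21185 (r = 0.90), AT2G29310 (r = 0.89), AT4G16980 (r = 0.88), AT4G23880 (r = 0.88) and AT1G06240 (r = 0.87). The genes most like AT5G65685 were AT4G12990 (r = 0.77), AT3G07200 (r = 0.70), APM1, an aminopeptidase (r = 0.69), AT1G10780 (r = 0.69) and AT1G53050 (r = 0.68). Of these, AT4G12990 also varied with AT5G65685 within genotypes (r = 0.61), and AT4G23880 with AT4G04750 (r = 0.55).

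Other genes of sugar transport and starch that were called with PAP1 were mostly lower. The 7 lists held 154 genes besides the 3, of which 52 had a probe set of their own and 37 were tested. In the average PAP1 effect, 1 of these 37 was higher and 7 were lower by limma, where 6.64% of all tested probe sets were higher and 8.06% lower. Their median difference was -0.08, beside -0.02 over all tested probe sets. The 5 anthocyanin genes had a median of 3.0. The count of 7 fell to 4 without Col-0 replicate 1 or without MYB12OX replicate 1, and to 0 with the listing position as a covariate.

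**Figure D5:**
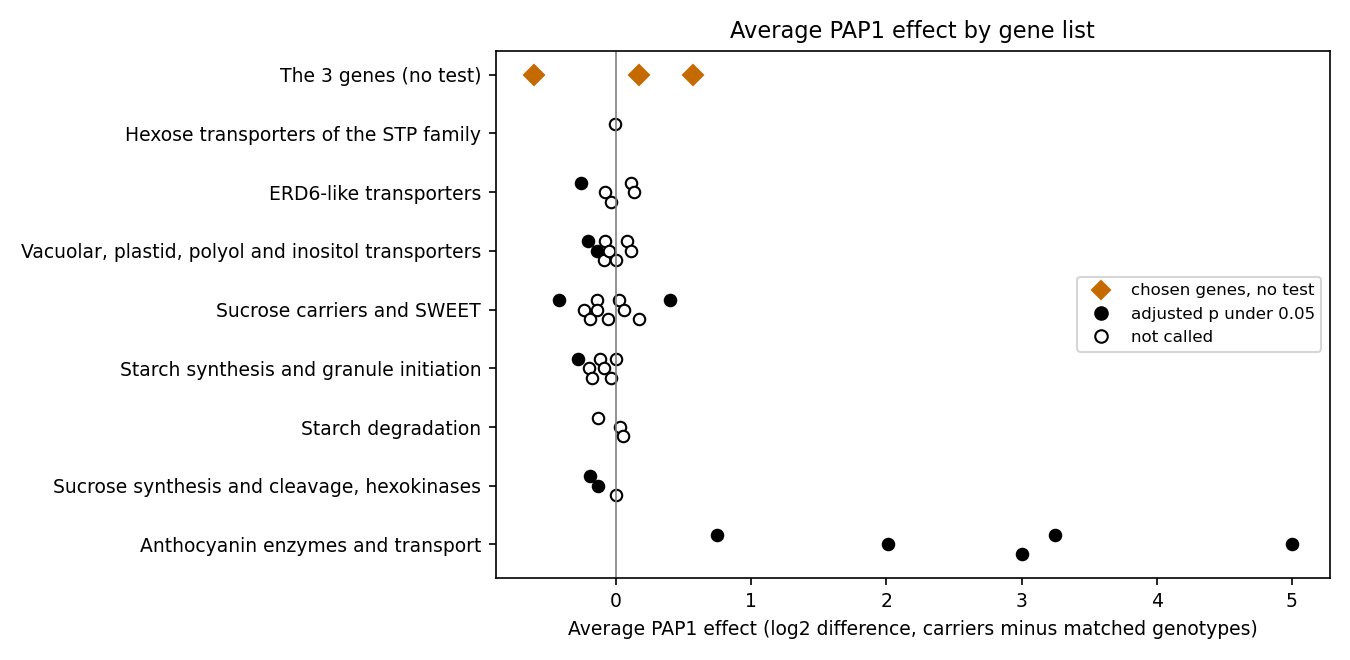
Average PAP1 effect on the scale of log2(signal + 42.6) for the tested genes of each list and for the 3 described genes, which carry no test. Filled points had an adjusted p under 0.05 by limma. The 37 carbohydrate genes lay near 0, with a median of -0.08, and the 5 anthocyanin genes had a median of 3.0.

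Of the 13 listed STP carriers, 1 was tested besides AT1G34580, AT5G61520, whose average PAP1 difference was -0.01. Of the 18 listed ERD6-like carriers, 5 were tested besides AT4G04750, and AT1G19450 was the 1 called, with an average of -0.26 (adjusted p = 0.0317 by limma). Its difference was negative in the CHS-intact pairs, at -0.44 in pap1-D, -0.37 in WOX1-1 and -0.66 in WOX1-2, and 0.19 in pap1-D/tt4 against tt4. SFP1 had -0.08, SFP2 -0.04, AT4G04760 0.11 and AT1G54730 0.13, none of them called. Among the SWEET sucrose exporters, SWEET11 rose by an average of 0.40 ± 0.04 over the backgrounds (adjusted p = 8.33e-07 by limma). In pap1-D against Col-0 its difference was 0.35, with mean signals of 3032 and 2360. In pap1-D/tt4 against tt4 it was 0.32 and not called. SWEET13 fell by an average of 0.42 ± 0.07 (adjusted p = 0.000293 by limma). In pap1-D against Col-0 its difference was -0.62, with mean signals of 97.2 and 171.5. Against MYB12OX it was -0.57 in WOX1-2, which was called, and -0.21 in WOX1-1, which was not. In pap1-D/tt4 against tt4 it was -0.27 and not called. Its mean signals were highest in Col-0 and lowest in pap1-D/tt4, at 38.1.

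Fewer genes of starch and sucrose synthesis were measured. Of the 7 tested genes of starch synthesis and granule initiation, the group of AT5G65685, 1 was lower: APL3, a large subunit of ADP-glucose pyrophosphorylase, fell by 0.28 (adjusted p = 0.0176 by limma). None of the 3 tested genes of starch degradation was called. Of the 3 genes of sucrose synthesis and cleavage, ATSPS4F, a sucrose-phosphate synthase, fell by 0.19 (adjusted p = 0.0205 by limma) and AT2G35840, a sucrose-phosphate phosphatase, fell by 0.13 (adjusted p = 0.0159 by limma). The vacuolar hexose carrier TMT2 fell by 0.14 (adjusted p = 0.0302 by limma), and the plastid pentose-phosphate translocator AT5G17630 fell by 0.21 (adjusted p = 0.0071 by limma). All of these are averages over the backgrounds. In pap1-D against Col-0 the difference was -0.39 for APL3, -0.22 for TMT2 and -0.26 for AT5G17630. In pap1-D/tt4 against tt4 it was -0.05, -0.06 and 0.02 in the same order. None of the 3 was called in either comparison.

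The same lists were read in the background without CHS. In pap1-D/tt4 against tt4, 0.147% of all tested probe sets were called by limma. All 5 anthocyanin genes were higher, with a median of 2.92, while none of the 37 carbohydrate genes was called and their median was 0.04. The differences of AT1G34580 (0.71), AT4G04750 (0.54) and AT5G65685 (-0.99) belong to the contrasts that chose them and are given without a call.

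Loss of CHS without pap1-D came with calls in both directions. In tt4 against Col-0, 5 of the 37 were higher and 13 lower, with a median of -0.22 beside 0.01 over all tested probe sets. Of all tested probe sets, 17.2% were lower and 36.5% were called in either direction. Of the ERD6-like carriers, the family of AT4G04750, 3 of 5 fell: the differences were -1.18 for AT1G19450, -0.69 for SFP2 and -0.36 for SFP1. The STP carrier AT5G61520 rose by 0.76, the opposite direction to AT1G34580. Position in the listing moved with these differences too. With it as a covariate, the probe sets called in tt4 against Col-0 fell from 5449 to 84 of 14935. Calls of the 37 genes in that fit are not given here. The PAP1 differences of the 37 genes were also compared between backgrounds by limma. None was called for CHS or for MYB12OX, where 1.17% and 0.208% of all tested probe sets were called, and 4 and 3 of the 37 had an unadjusted p under 0.05.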

How the data were processed

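RNA from aerial parts was measured on 24 ATH1 arrays, 3 for each of 8 genotypes. The deposited values are linear signal intensities computed by the authors in MAS5 (per the submitters' processing notes), in a version that no source used here names. The table shows a mean signal of 500 on every array after trimming 2% at each end, a scaling that removes any change common to most genes. The number of arrays limits the precision.

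Of 22810 probe sets, 64 controls were left out. Probe sets above a signal of 85.2 on at least 3 arrays were tested as log2(signal + 42.6), the offset being the overall median signal of 170.4 divided by 4. One mean per genotype was fitted to all 24 arrays with limma 3.58.1 in R 4.3.3 (eBayes with intensity trend, 16 residual degrees of freedom), two-sided, with Benjamini-Hochberg adjustment per contrast over 15 contrasts. The average PAP1 effect is the mean of pap1-D minus Col-0, the mean WOX1 line minus MYB12OX, and pap1-D/tt4 minus tt4. The interactions of PAP1 with CHS and with MYB12OX, planned as tests, are given for the 3 genes without one, since they are made of the differences that chose them. The fit was tested on simulated data with known changes. Names came from the platform annotation, updated through RefSeq (TAIR10.1): 13513 probe sets had 1 gene, 503 several and 8730 none, and 13484 of those with 1 gene matched.

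The 3 genes and all lists were chosen with earlier results of these data known. Named besides the 3 genes are, of each list, up to 6 called genes with the largest average PAP1 effect, all tested STP and ERD6-like genes, and the 5 genes with the highest correlation to each of the 3. A few list genes are also named for tt4. Alternatives were other offsets, filters, quantile normalization, a replicate block, array weights, listing position as a covariate, fewer genotypes in the fit and each array left out.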

Additional observations from a re-analysis of the deposited data

How the results depend on the processing

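Of 792 values of the 3 genes in the 8 tested comparisons under the alternatives, 767 stayed on the same side of the threshold, 20 lost a call, 4 gained one, and 1 called difference reversed: AT1G34580 in tt4 against Col-0, at 0.07 with listing position as a covariate. In all, 8 values had the other sign, that one being the single called difference among them. With that covariate, the number of the 3 genes called fell to 0 in tt4 against Col-0, MYB12OX/tt4 against MYB12OX, WOX1-1 and WOX1-2 against pap1-D, and pap1-D/tt4 against pap1-D, and the carbohydrate genes lower with PAP1 fell from 7 to 0; genotype and position nearly coincide in that fit. With only the genotypes of the contrast fitted, the number called was 0 for WOX1-1 against pap1-D and for WOX1-2 against pap1-D, with fewer arrays to estimate the spread. It rose from 0 to 1 in MYB12OX/tt4 against tt4 with the replicate block and with array weights. An offset of 170.4 moved the average PAP1 effect of AT1G34580 from 0.57 to 0.32, its PAP1 by CHS interaction from 0.39 to 0.20 and its PAP1 by MYB12 interaction from 0.36 to 0.21, and the PAP1 by CHS interaction of AT4G04750 from 0.46 to 0.26. The listing covariate moved the PAP1 by CHS interaction of AT1G34580 to 0.13 and of AT5G65685 to -0.10. With each array left out in turn, the number called ran from 0 to 1 in MYB12OX/tt4 against tt4 and WOX1-1 against pap1-D, and from 0 to 2 in WOX1-2 against pap1-D. The PAP1 by MYB12 interaction of AT1G34580 ran from 0.25 to 0.52, and the carbohydrate genes lower with PAP1 from 4 to 9.

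Replicate numbers were not taken to pair the arrays, since no label says what a number shares. Of 84 same-number pairs, 36 had a correlation of deviations above 0.1 (median 0.09, highest 0.56). As a hint from the data, 15 of 24 arrays correlated best with their own number among the 3 numbers. The first principal component also rose from replicate 1 to 3 within every genotype. The main fit, which has no block, thus leaves out a trend that goes with replicate number or listing position. The replicate block changed 1 call of the 3 genes (AT4G04750 in MYB12OX/tt4 against tt4, adjusted p = 0.0498). It raised the probe sets called from 150 to 338 in MYB12OX against Col-0, from 28 to 97 in MYB12OX/tt4 against tt4, from 7 to 19 in WOX1-1 against pap1-D, from 175 to 391 in the PAP1 by CHS interaction and from 31 to 55 in the PAP1 by MYB12 interaction. The listing covariate lowered them from 5449 to 84 in tt4 against Col-0 and from 2195 to 234 in the average PAP1 effect.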
